A study of Mus musculus with 4 samples.

Results

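Genes for the enzymes that cut the extracellular matrix, and for the proteins that hold those enzymes in check, were examined in the adult mouse ureter. The set was defined by symbol as the matrix metalloproteinases (Mmp), their tissue inhibitors (Timp1 to Timp4 and Reck), the ADAMTS proteases and ADAMTS-like proteins, and the plasminogen activators with their receptor and serpin inhibitors. It comprised 46 genes of 18193 with a named probe set, read by 84 probe sets. A further 11 genes of these families are not analysed here, among them both serpin inhibitors, so the plasminogen system is represented by 3 genes. Where several probe sets read a gene, its level was taken from the one with the highest mean.

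All 4 samples were ureters of adult male FVB/N mice at Theiler stage 28 that carried the SMGA/EGFP transgene, in which smooth muscle gamma actin (Actg2) drives EGFP. The fluorescence guided the dissection between kidney and bladder, and the tissue contained every cell type of the ureter wall. RNA of each unpooled sample was amplified in 2 rounds and hybridised to 1 array. All samples belong to 1 group with no untreated or non-transgenic set beside it, so the questions are which of these genes were expressed and how much they varied from sample to sample.

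Matrix metalloproteinases are zinc enzymes made as inactive precursors that cleave collagens, gelatin, proteoglycans and cell surface proteins. TIMPs bind their active sites, and Reck is a membrane-anchored inhibitor. ADAMTS proteases are secreted, and several of them cut the large proteoglycans versican and aggrecan, while ADAMTS-like proteins share their ancillary domains but carry no protease domain. The plasminogen activators turn plasminogen into plasmin, which degrades fibrin and can activate metalloproteinase precursors.

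In the RefSeq gene table of mouse assembly GRCm38.p6, 9 of the metalloproteinase genes lie in 1 run on chromosome 9, from Mmp13 at one end to Mmp7 at the other. Timp1, Timp3 and Timp4 each lie within a synapsin gene (Syn1, Syn3 and Syn2), and Adamts1 and Adamts5 are neighbours, as are Adamts15 and Adamts8. RefSeq promoter windows, 250 bases before to 50 bases after the start, were at hand for 29 of the 46 genes. The letters TGANTCA, which include the binding sequence of AP-1 (the Fos and Jun factors) and read the same on both strands, occurred in the windows of 9 of these 29 genes (31.0%), against 8.97% of 27025 genes with a window. Of those 9 genes, 8 belong to the chromosome 9 run, whose members are related copies and share sequence. The letters TATAAA on the gene's own strand within 50 bases before the start, searched for after the data had been seen, occurred in 8 of the 29 genes (27.6%), against 3.15% of all genes. The 2 motifs cannot overlap. Both were present in 6 genes (20.7%), against 0.481% of all genes. The 100 bases before the start are shown for these 6 genes, because only 1 of them was above background in the ureter, and for Plaur and Adamts1, which carry 1 motif each and were above background. Sequences run 5′ to 3′ on the gene's strand with both motifs in capitals.
Mmp7, chr9:7691990-7692089, plus strand: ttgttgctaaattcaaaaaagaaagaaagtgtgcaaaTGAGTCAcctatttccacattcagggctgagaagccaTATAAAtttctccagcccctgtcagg
Mmp10, chr9:7502242-7502341, plus strand: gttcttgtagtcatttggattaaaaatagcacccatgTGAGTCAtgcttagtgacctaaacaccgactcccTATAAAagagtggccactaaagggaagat
Mmp3, chr9:7445722-7445821, plus strand: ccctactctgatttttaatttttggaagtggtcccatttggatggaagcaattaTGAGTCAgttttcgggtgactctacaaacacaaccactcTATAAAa
Mmp13, chr9:7272414-7272513, plus strand: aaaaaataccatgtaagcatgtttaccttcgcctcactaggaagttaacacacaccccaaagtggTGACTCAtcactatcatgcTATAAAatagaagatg
Mmp1a, chr9:7464041-7464140, plus strand: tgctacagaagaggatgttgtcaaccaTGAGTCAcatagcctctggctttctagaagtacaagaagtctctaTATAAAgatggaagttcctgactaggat
Mmp1b, chr9:7388027-7388126, minus strand: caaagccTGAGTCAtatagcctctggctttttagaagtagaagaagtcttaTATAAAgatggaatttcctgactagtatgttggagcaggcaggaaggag
Plaur, chr7:24462383-24462482, plus strand: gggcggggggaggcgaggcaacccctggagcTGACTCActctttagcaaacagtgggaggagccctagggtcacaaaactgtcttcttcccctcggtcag
Adamts1, chr16:85803114-85803213, minus strand: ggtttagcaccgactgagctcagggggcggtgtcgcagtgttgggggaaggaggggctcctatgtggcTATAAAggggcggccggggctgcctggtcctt

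Levels are log2(intensity + 16), given as mean ± SD over the 4 samples (n = 4), which are called replicates 1 to 4 in an order without meaning. A background threshold was set on each array at the 95th percentile of 87 probe sets for smell, pheromone and taste receptors, at 7.25, 6.99, 7.56 and 7.36. A gene was above background where at least 1 of its probe sets exceeded these thresholds by limma's moderated test, one-sided, at a Benjamini-Hochberg adjusted p under 0.05 over 45037 probe sets. Nothing in the labels says that the samples came from separate animals, so p-values measure only the spread between these samples. Levels of different genes come from different probe sets and were not compared with each other.

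The arrays differed in ways that bear on these genes. Replicate 3 stood apart, and its Pearson correlation with the other arrays over all probe sets was 0.890 to 0.909, against 0.927 to 0.935 among the other 3. Replicate 3 had all 5 skeletal muscle markers over its threshold, where replicates 1, 2 and 4 had 0, 1 and 1, and these markers summed to an intensity of 143913 there, against 237 to 411 elsewhere. Fabp4, a fat cell gene, reached 14.93 in replicate 3, against 7.06 to 8.33 elsewhere. Adipoq, the other fat gene measured, was also highest there but near the threshold, at 7.77 against 4.5 to 5.8 elsewhere. The 4 liver markers summed to 43230 in replicate 1 and 11670 in replicate 3 but to 384 and 475 in the other pair. The 3 male reproductive tract markers did not move together, since in replicate 3 Pbsn was highest (15.41 against 8.80 to 9.42) but Svs4 and Svs5 were not (6.55 and 7.61, against 14.80 and 14.61 in replicate 2). The ratio of 3' to 5' signal ran over the arrays from 18.8 to 36.9 for Gapdh and from 4.43 to 19.8 for Actb. After 2 rounds of amplification these ratios cannot be read as RNA integrity alone. Markers of the ureter's own cells were present, with all 6 smooth muscle and all 5 urothelial genes above background.

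Of the 46 protease and inhibitor genes 21 were above background (45.7%), against 57.9% of all named genes, and so were 32 of their 84 probe sets, against 40.9% of all probe sets. All 5 inhibitor genes passed (Timp1, Timp2, Timp3, Timp4 and Reck), as did 4 of 5 ADAMTS-like genes, 2 of 3 plasminogen activation genes and 4 of 7 ADAMTS proteases of aggrecan and versican. Of the 18 metalloproteinases counted by group, Mmp2, Mmp7, Mmp14 and Mmp16 passed, and none of the 4 collagenases or 3 stromelysins did. Counted on each array with no test, 27, 28, 26 and 29 of the 46 genes exceeded the threshold in replicates 1 to 4, which is 58.7%, 60.9%, 56.5% and 63.0%, against 66.9%, 68.5%, 67.4% and 66% of all named genes. In all 4 samples 22 genes were over it (58.4% of all named genes were), in none 14 (23.4%) and in some 10.

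**Figure D1:**
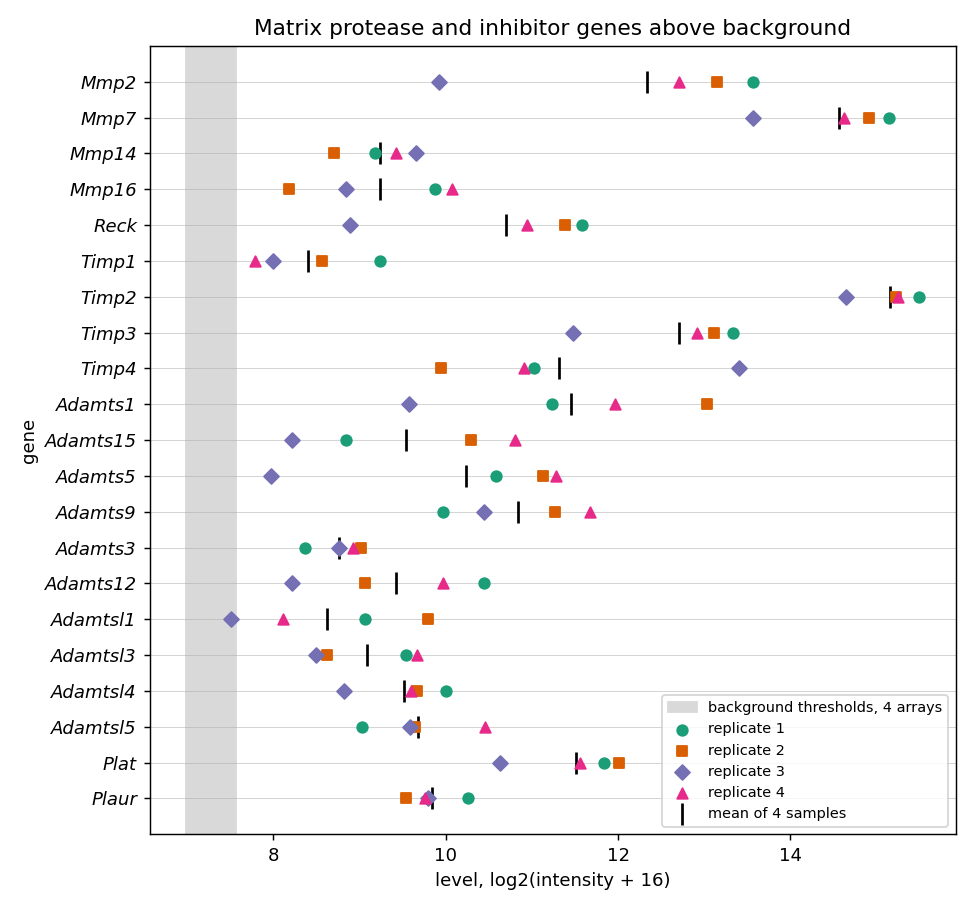
Level of each of the 21 genes above background, with log2(intensity + 16) on the horizontal axis, 1 point per sample, a bar for the mean of 4 samples and a grey band over the range of the 4 array thresholds. The points of replicate 3 lie left of the others for Mmp2, Reck, Adamts1 and Adamts5 and right of them for Timp4, and Adamtsl1 in replicate 3 reaches the band.

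The inhibitor genes spread unevenly between samples. Timp2, whose protein both inhibits Mmp2 and takes part in its activation at the cell surface, had 15.49, 15.23, 14.64 and 15.25 in replicates 1 to 4, a mean of 15.15 ± 0.36 (adjusted p = 2.35e-08, limma). Timp3, the inhibitor that binds to the matrix and also blocks ADAMTS enzymes, had 13.33, 13.11, 11.48 and 12.92. Both were lowest in replicate 3, whose deviation from the mean of the other samples was -0.69 log2 units for Timp2 and -1.64 for Timp3.

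Timp4 went the other way. It had 13.40 in replicate 3, against 11.02, 9.94 and 10.91 in replicates 1, 2 and 4, so replicate 3 exceeded the mean of the others by 2.78 log2 units. Its second probe set was also highest in replicate 3, at 10.15 against 6.82, 8.46 and 8.70. The skeletal muscle markers, Fabp4 and Pbsn were high in the same sample. Of the mesothelial markers, Upk3b was highest there (14.34 against 10.44 to 11.73 elsewhere) and Msln lowest (7.31 against 11.14 to 13.60). Wt1, the other one measured, was over no threshold. The part of all these markers in the level of Timp4 was not tested.

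Timp1, an inducible soluble inhibitor, lay near the threshold with 9.24, 8.57, 7.99 and 7.79 in replicates 1 to 4 (8.40 ± 0.65, adjusted p = 0.0213, limma). It did not pass when replicate 1 (adjusted p = 0.107) or replicate 2 (adjusted p = 0.085) was left out. Reck had 11.58, 11.39, 8.89 and 10.94. All its values exceeded the thresholds, and replicate 3 was again the lowest (deviation -2.41).

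Among the metalloproteinases, Mmp7 (matrilysin), an enzyme known from glandular and mucosal epithelia, was expressed in every sample with 15.14, 14.91, 13.57 and 14.62 (14.56 ± 0.69, adjusted p = 1.63e-07, limma). It is the end gene of the chromosome 9 run and the only one of its 9 measured genes above background. The other 8, Mmp13, Mmp12, Mmp1b, Mmp3, Mmp1a, Mmp10, Mmp8 and Mmp20, had levels between 4.23 and 7.17 over all samples. Only Mmp13 in replicate 2, at 7.17, exceeded its array's threshold. The probe set of Mmp7 was lowest in replicate 3. In that sample 4 of 5 urothelial markers were higher and all 6 fibroblast markers lower than in the mean of the others, and their part in the Mmp7 value was not tested.

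Mmp2 (gelatinase A), a product of connective tissue cells that digests denatured and basement membrane collagen, had 13.57, 13.15, 9.92 and 12.71 in replicates 1 to 4 (12.34 ± 1.65, adjusted p = 7.30e-05, limma). Its range was 12.5-fold with replicate 3 at the bottom, and its second probe set was lowest there too, at 8.98 against 12.16 to 12.77. Mmp9 (gelatinase B), known from neutrophils and macrophages, was not above background. Its values were 6.22, 8.15, 8.21 and 8.33, lowest in replicate 1, and it passed when replicate 1 was left out (adjusted p = 0.0486). Its second probe set did not repeat that order. It stayed at 4.70 to 5.20, under every threshold, and was highest in replicate 1. Of 6 neutrophil markers, 5 were over no array's threshold. The other, Ltf, which glandular epithelia also make, was lowest in replicate 1, at 8.43 against 12.16 to 13.44.

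The membrane-type metalloproteinase Mmp14, the activator of the Mmp2 precursor, had 9.18, 8.71, 9.65 and 9.42 (9.24 ± 0.40). Its samples lay within 0.95 log2 units, and with Timp4 it was 1 of 2 genes above background that were higher in replicate 3 than in the mean of the others. Mmp16, another membrane-type enzyme, had 9.88, 8.18, 8.84 and 10.07. For each of these 2 genes 1 probe set was above background, of 3 for Mmp14 and of 4 for Mmp16, and both calls were lost when all probe sets were averaged. Mmp17 and Mmp24, with levels between 6.92 and 8.72, were not above background, and Mmp17 had 7.10, 7.10, 7.80 and 7.05 in replicates 1 to 4.

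The remaining metalloproteinases were not above background. Mmp11 (stromelysin 3) exceeded the threshold in replicate 1 alone, with 8.17 against 5.78 to 7.25 elsewhere. Mmp19 and Mmp12 (macrophage elastase) were over it in no sample, although all 4 macrophage markers were above background. Mmp23 was over it in 3 samples, with 9.12 in replicate 4, and passed without replicate 3 (adjusted p = 0.0223, limma).

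Of the 7 ADAMTS proteases that cut versican and aggrecan, Adamts1, Adamts5, Adamts9 and Adamts15 were above background. Adamts1 had 11.23, 13.03, 9.57 and 11.96 in replicates 1 to 4 (11.45 ± 1.45, adjusted p = 0.000151, limma), with replicate 2 at the top and replicate 3 at the bottom. Its neighbour Adamts5, a major aggrecanase of mouse cartilage, had 10.58, 11.13, 7.98 and 11.28, with replicate 3 again at the bottom (deviation -3.02). The second Adamts5 probe set did not repeat that order, with 8.39, 10.39, 9.27 and 10.36, where replicate 1 was lowest. The third, not above background, was lowest in replicate 3, at 6.94 against 8.05 to 8.72 elsewhere. The fourth stayed at 4.17 to 4.38 in all samples. With all probe sets averaged, Adamts5 did not pass (adjusted p = 0.0681, limma).

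Adamts15 had 8.84, 10.29, 8.21 and 10.80, so replicates 2 and 4 lay above replicates 1 and 3. Adamts9, the fourth of this group above background, ran from 9.97 in replicate 1 to 11.67 in replicate 4. The other 3, Adamts4, Adamts8 and Adamts20, stayed between 4.26 and 7.65. Of these, Adamts4 exceeded the threshold in 2 samples, and Adamts8, next to Adamts15 on chromosome 9, had 5.36, 6.68, 6.83 and 6.78. The substrate Vcan (versican) was above background at 10.70 ± 0.76 and Acan (aggrecan) was not (7.28 ± 0.56).

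Outside that group, Adamts3, a procollagen N-propeptidase, had 8.36, 9.02, 8.76 and 8.92 (8.77 ± 0.29), the smallest SD of the 21 genes above background. Its second probe set lay at 4.29 to 5.74, and the call was lost when both were averaged. Adamts12, which can cleave cartilage oligomeric matrix protein, had 10.44, 9.06, 8.22 and 9.97, and it did not pass with all probe sets averaged (adjusted p = 0.588, limma). Adamts10 and Adamts16 were over the threshold in all 4 samples without passing the test (adjusted p = 0.156 and 0.197, limma). Adamts10 had 7.99, 7.26, 7.91 and 7.95. Adamts7 was split, with 7.84 and 8.91 in replicates 1 and 4 over the threshold and 6.51 and 5.90 in replicates 2 and 3 under it, and Adamts6, Adamts18 and Adamts19 were over it in none.

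Of the ADAMTS-like genes, Adamtsl1 had 9.06, 9.80, 7.51 and 8.12, so that replicate 3 fell just under its own threshold of 7.56. Its call (adjusted p = 0.0281, limma) did not hold when replicate 1 (adjusted p = 0.0965) or replicate 2 (adjusted p = 0.127) was left out, nor with all probe sets averaged. Adamtsl3 had 9.54, 8.63, 8.49 and 9.67, and Adamtsl4, whose protein associates with fibrillin microfibrils, had 10, 9.66, 8.82 and 9.60. Adamtsl5 ranged from 9.03 to 10.46. Adamtsl2, also a fibrillin microfibril gene, was not above background, with 4.99 to 6.78.

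The 3 genes of plasminogen activation behaved differently from each other. Plat (tissue-type activator), known from endothelium and nerve, had 11.84, 12.01, 10.63 and 11.56 (11.51 ± 0.62, adjusted p = 4.58e-06, limma). The second Plat probe set, not above background, was highest in replicate 3, at 8.54 against 4.8 to 6.9 elsewhere. Plaur, the receptor that holds urokinase at the cell surface, had 10.26, 9.54, 9.80 and 9.76 (9.84 ± 0.30). Its samples lay within 0.72 log2 units. Plau, which encodes urokinase itself and whose values are given in full because of their spread, had 7.03, 6.53, 11.25 and 7.97 in replicates 1 to 4. Replicates 3 and 4 were over the threshold and replicates 1 and 2 under it, and across the 4 samples the gene did not pass the background test (adjusted p = 0.23, limma). Its second probe set was not high there, at 4.16 in replicate 3 against 4.26 to 5.58 elsewhere. Replicate 3 also carried the skeletal muscle markers, Fabp4 and, of the 3 male reproductive tract markers, the prostate gene Pbsn, and their part in the Plau value was not tested.

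**Figure D2:**
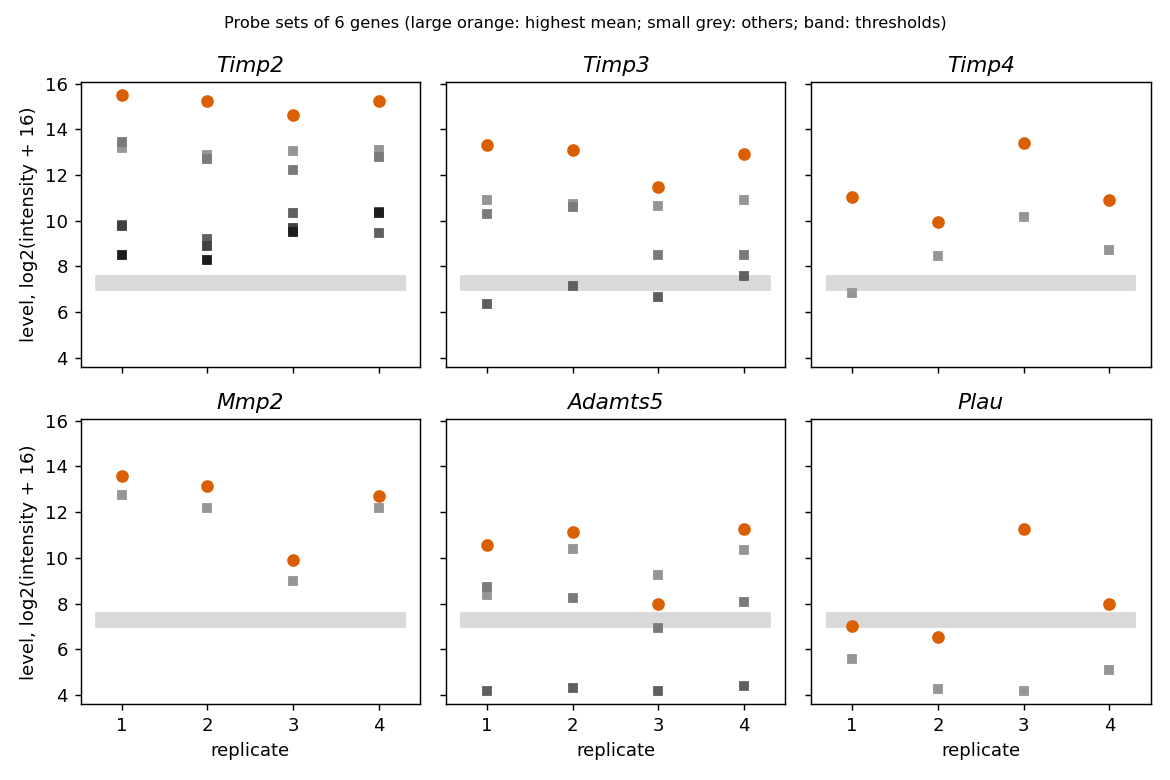
Level, as log2(intensity + 16), of every probe set of 6 genes chosen after their values were seen, with the 4 replicates on the horizontal axis, the probe set with the highest mean in orange, the others in grey and the array thresholds as a band. Both probe sets of Mmp2 are low and both of Timp4 high in replicate 3, while the probe sets of Timp2, Timp3, Adamts5 and Plau do not share 1 order of samples.

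The readings also differed between probe sets of 1 gene. Among the 23 genes read by several, 10 had some that passed the background test and some that did not. The same share over all named genes was not counted, so it is not known whether these genes differ from others in this. All 6 probe sets of Timp2 were above background, but their samples did not rank alike, since the one with the highest mean was lowest in replicate 3 and another was highest there (10.36 against 9.22 to 9.80). One Timp3 probe set was nearly level, at 10.90, 10.73, 10.66 and 10.89, beside the 1.85 log2 units covered by the one with the highest mean.

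Across the 21 genes above background, replicate 3 was low. In it 19 of 21 genes were lower than the mean of the other samples (90.5%), against 52.6% of all named genes above background, and 13 of 21 were the lowest of the 4 samples, against 34.3%. The median deviation of replicate 3 was -0.93 log2 units, against -0.05 over all named genes above background. The medians of replicates 1, 2 and 4 were 0.56, 0.34 and 0.28, against 0.03, 0.03 and 0.05, and 14, 14 and 17 of the 21 genes were higher there than the mean of the other samples, against 53.3%, 52.3% and 53.4% of all named genes above background. Counted over the 32 probe sets of these families above background, 24 were lower in replicate 3 (48.2% of all probe sets above background were), with a median of -0.61 against 0.03.

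Without replicate 3 the medians of replicates 1, 2 and 4 were 0.32, 0.01 and -0.11. Connective tissue and vessel markers were low in replicate 3, with medians of -2.14 over 6 fibroblast and -1.45 over 4 endothelial genes. So were the 4 macrophage markers (-0.71), with no gene of the 3 lists higher there. Smooth muscle markers were not low there (median 0.21, 5 of 6 higher), nor were urothelial markers (median 0.55, 4 of 5 higher). The summed intensity of the fibroblast markers was 20205 in replicate 3, against 77968 to 113735 elsewhere. In whole tissue, fewer cells of a type and less RNA per cell cannot be told apart, and the part of these markers in the protease values was not tested. Over all 46 genes, those under background included, the median of replicate 3 was -0.15, against 0.08 over all named genes. Of the 46, 20 were higher there (43.5%), against 54.6% of all named genes.

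**Figure D3:**
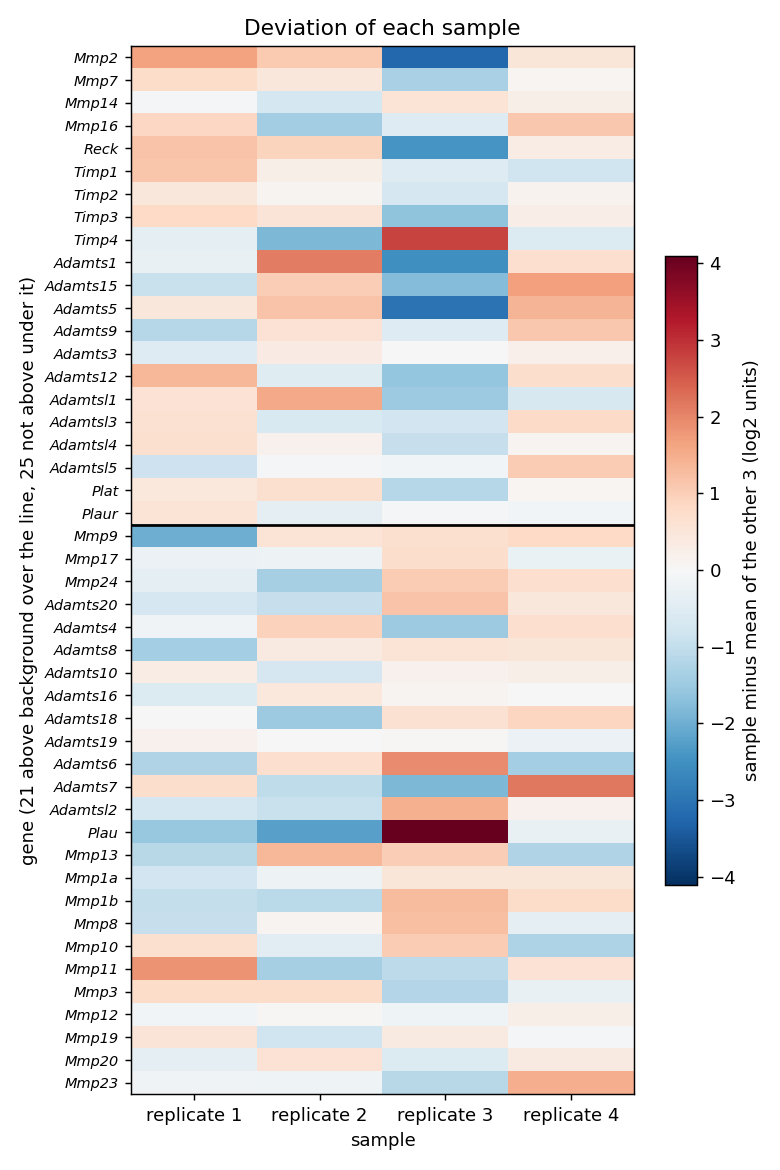
Deviation of each sample from the mean of the other 3, in log2 units on a colour scale from blue (lower) to red (higher), for the 46 genes in rows and the 4 samples in columns, with the 21 genes above background over the line and the 25 others under it. Among the genes over the line the column of replicate 3 is blue except for Timp4 and Mmp14, with Mmp2 (-3.22) and Adamts5 (-3.02) darkest, and under it Plau stands out in red (4.07).

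**Figure D4:**
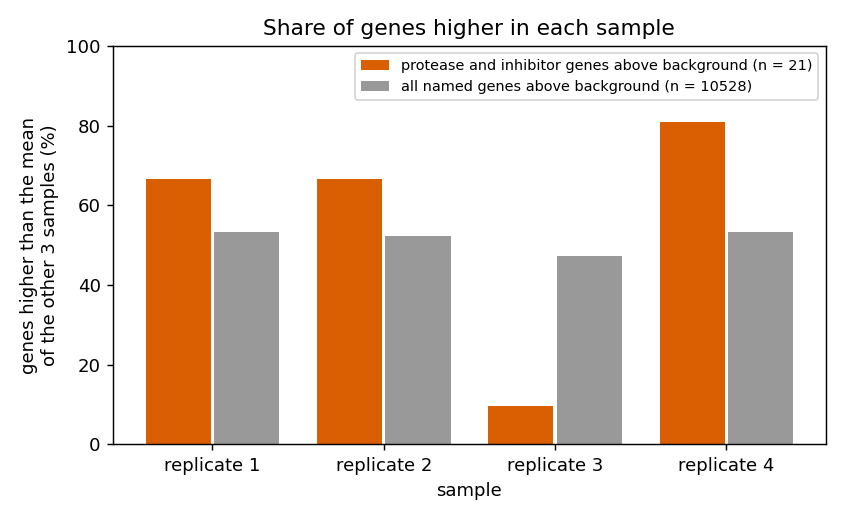
Percent of genes whose level in a sample exceeded the mean of the other 3 samples, for the 21 protease and inhibitor genes above background (orange) and all 10528 named genes above background (grey), for each of the 4 samples. In replicate 3 the orange bar stands at 9.52% and the grey one at 47.4%, and in the other samples the orange bars are the taller.

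The spread between samples did not pass the test for any of these genes. The ratio of each gene's variance to limma's prior variance gave 0 of 21 genes an adjusted p under 0.05, as it did 0 of 18434 probe sets above background. At an unadjusted p under 0.05 it gave 6 of 21 genes (28.6%), against 5.42% of all named genes so tested. These were Mmp2 (unadjusted p = 0.00416), Adamts1 (0.0115), Timp4 (0.0116), Adamts5 (0.0182), Reck (0.0345) and Mmp7 (0.0492). Timp4 was highest and the other 5 lowest in replicate 3, and without that sample the count was 1 of 22 (4.35% of all named genes). The median SD of the 21 genes was 0.77 log2 units, against 0.41 over all named genes above background.

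Other genes of the same processes were measured for context. Of 8 genes around plasmin, Serping1, Anxa2, S100a10 and Lrp1 were above background, and Plg, which the liver makes, was not, with 9.36, 5.13, 8.76 and 6.47, the higher values in the samples with the high liver markers. Of 8 ADAM proteases 5 passed, including Adam10 (14.78 ± 0.09) and Adam17 (12.20 ± 0.29), the sheddases of many surface proteins. All 6 lysosomal protease and cystatin genes passed. In replicate 3 Ctsk, a collagen-degrading cathepsin, was lowest (6.44 against 9.62 to 10.57), while Ctsb and Ctsd, general lysosomal cathepsins, were highest (15.22 against 13.36 to 14.20 and 14.73 against 13.51 to 13.92), and 4 of the 6 were lower there than in the mean of the others. Of 7 proprotein convertases and procollagen C-proteinase genes 5 passed. Pcolce, an enhancer of procollagen cleavage, had 11.79 in replicate 3 against 14.08 to 15.14. Of 8 matrix substrate genes 7 passed, and of the 8 only Acan, the one that did not pass, was higher in replicate 3 than in the mean of the others.

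The AP-1 letters and the background calls were set side by side. Of the 9 genes with TGANTCA in a promoter window 2 were above background (22.2%, Mmp7 and Plaur), and of the 20 without it 13 were (65.0%). Of the 14368 named genes with a window, 48.8% of those with the letters and 60.3% of those without were above background. As 8 of the 9 belong to the chromosome 9 run, these counts largely repeat the calls of that run. Of the 6 genes with both motifs, Mmp7 was the one above background, and the printed windows of Mmp7 and Mmp10 carry TGAGTCA at the same distance, 63 bases before the start. A match of letters describes the window and not the binding of a factor.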

How the data were processed

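Whole-genome expression was measured on Affymetrix MOE430 arrays in 4 samples of adult ureter. The authors deposited 1 linear intensity per probe set and array. Per the submitters' processing notes GCOS was used; no version or algorithm was stated there. From the values, the mean without the highest and lowest 2% was 1500 on every array, so they were used as deposited. Detection calls were not used here, and the number of arrays limits the precision. Control probe sets (64) were not tested. Of the other 45037, 34945 carry 1 symbol in the platform annotation, 932 carry several and 9160 carry none; only the first kind was named.

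Tests used limma 3.58.1 in R 4.3.3 with a trended robust prior, on log2(intensity + 16). The added 16 shrinks differences at low intensity. The spread test was an F test with 3 and 5.25 degrees of freedom on probe sets above background. It cannot see spread that most probe sets share, and failing it does not show that samples were alike. Both tests were run on simulated data, and only the spread test is described here. Among simulated probe sets above background, it called the widest spreads, some of the next widest and none of the smaller ones. Simulated probe sets that were not above background were left out of that count. In the setting reported, Plau had no spread test because it was not above background. No 2 arrays held the same values.

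The members and all lists were chosen with earlier results of these data known. Values in every sample were given by rule for genes above background among inhibitors, gelatinases, membrane-type enzymes and plasminogen activation. They were also given for the first 3 genes above background of each other role. The rule further took genes with a sample far from the rest or an unadjusted spread p under 0.05. Values of Plau and Adamts7, and of Adam10, Adam17, Ctsk and Pcolce among the genes for context, were given outside this plan. The settings varied were the pseudocount (1 and 64), the array scaling (quantile), the background level, the need for a test, the use of several probe sets and the samples included. Protein sequences were not used here.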

Additional observations from a re-analysis of the deposited data

Results flagged for a closer look

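In 4 of the 46 genes (8.70%, against 6.85% of all named genes) 1 sample lay far from the other 3 by Dixon's criterion for 4 values, which chance meets in about 1 of 20 groups. None of the 4 genes was above background. Mmp9 was low in replicate 1, at 6.22 against 8.15 to 8.33 elsewhere. Its second probe set, under every threshold, was instead highest in replicate 1, at 5.20 against 4.70 to 5.17 elsewhere. Adamts8 was low in replicate 1 as well, at 5.36 against 6.68 to 6.83, all under the thresholds. Adamts10 was low in replicate 2, at 7.26 against 7.91 to 7.99. Its second probe set, also under every threshold, was highest in replicate 2, at 6.89 against 5.11 to 6.23 elsewhere. Mmp17 was high in replicate 3, at 7.80 against 7.05 to 7.10.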

How the results depend on the processing

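Of the 46 genes 21 were above background in the setting reported, and 15 to 22 in all alternatives but 1. With the threshold at the median plus 3 median absolute deviations of the receptor probe sets, 9 passed (39.8% of all named genes). There Adamts3 (-0.589), Adamtsl1 (-0.734), Adamtsl3 (-0.272), Mmp14 (-0.113), Mmp16 (-0.112) and Timp1 (-0.956) had means under the threshold, in log2 units. Adamts5, Adamts12, Adamts15, Adamtsl4, Adamtsl5 and Plaur lay over it without passing. With the threshold at the 99th percentile, Timp1 (adjusted p = 0.194, limma) and Adamtsl1 (adjusted p = 0.141, limma) did not pass. With the mean of all probe sets, 15 passed (51.4% of all named genes), Adamts3 (-0.429), Adamtsl1 (-0.701), Mmp14 (-0.0621) and Mmp16 (-0.188) lay under it, and Adamts5 and Adamts12 lay over it without passing. The call of 9 genes held in every alternative run. Leaving out 1 sample gave 19 to 22 genes. No gene passed the spread test at an adjusted p under 0.05 in any alternative. At an unadjusted p under 0.05, 1 of 22 genes passed it without replicate 3, against 4.35% of all named genes. It gave 5 of 20 without replicate 1, 8 of 19 without replicate 2 and 6 of 21 without replicate 4. For those settings the share over all named genes was not counted. The median deviation of replicate 3, -0.93, was -1.08 to -1.01 without another sample, -1.2 after quantile normalization, -0.54 with the mean of all probe sets and -0.146 over all 46 genes with no filter on low values. The medians of replicates 1, 2 and 4 without another sample ran from 0.318 to 0.592, 0.00751 to 0.457 and -0.111 to 0.632. Quantile normalization moved the median of all probe sets by 0.112, 0.202, -0.254 and -0.0458 in replicates 1 to 4, and among probe sets above background by 0.0566, 0.0499, -0.0445 and -0.0871. No paired analysis was possible because there is 1 group. Levels near the threshold, as of Timp1 and Adamtsl1, are limited by signal over background.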
